A study of Homo sapiens with 14 samples.

Results

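The cytosolic ribosomal protein genes were taken as the protein-coding genes whose symbols begin with RPL or RPS and a digit, together with RPLP0, RPLP1, RPLP2 and RPSA. Pseudogenes, the RPS6 kinases and antisense genes were left out. Of 62296 annotated gene symbols, 91 met this rule. Core members, the proteins of the standard ribosome, made up 77 of them, with 46 genes of the large (60S) subunit and 31 of the small (40S) subunit. The rest were 8 paralogs of core members, 2 Y-linked paralogs that are counted here without values, 3 readthrough genes and RPS19BP1, which shares the name pattern but encodes a protein that binds RPS19.

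All samples were poly(A)-selected RNA from IMR90, primary human fetal lung fibroblasts, in 7 groups with 2 samples listed for each. The isolates, I79 and I10, were each sampled while proliferating (young) and after passaging into replicative senescence (old). Each of these 4 groups had 1 deposited table. I79 was also sampled under ICM, short for inflachromene, a compound known to bind HMGB1 and HMGB2, which are chromatin proteins. The labels give neither its dose nor its duration. The last groups were wild-type cells (WT) and cells with siRNA knockdown of HMGB2 (HMGB2 KD), and the labels give neither their isolate nor a control siRNA for WT. The labels do not say that replicates came from separate cultures, so p-values measure only the spread between these samples.

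Each ribosome carries 1 copy of most of these proteins, and a growing cell makes the proteins of both subunits in matched amounts. Most ribosomal protein mRNAs are abundant, stable and short, and begin with a run of pyrimidines, the 5′ terminal oligopyrimidine (TOP) tract. Through this tract the kinase mTOR and the RNA-binding protein LARP1 set how strongly the mRNAs are translated, so their mRNA level and their protein output can part ways. In fibroblasts that have stopped dividing, ribosome production is known to slow, and unassembled RPL5 and RPL11 can bind the ubiquitin ligase MDM2.

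The annotated start sequences were searched for the tract. RefSeq promoter entries on GRCh38.p14 were found for 62 of 77 core members. A C at the annotated start followed by at least 4 further C or T letters, read on the gene's strand, stood in 46 of these 62 (74.2%). Among 15318 protein-coding genes with an entry the share was 6.32%, among mitochondrial ribosomal proteins 8.7%, and among the paralogs 1 of 6 had it. A match is a description of the letters and not a mapped start in these cells. A run that begins away from the annotated start is not counted, as in RPS26, so a gene without a match may still carry a tract. The lines below show 10 bases before the annotated start and 20 from it, with the pyrimidine run in capitals for members that have the tract. They were chosen because the results turn on these genes: RPS6 is the 40S protein phosphorylated in response to growth signals, RPLP0 the base of the ribosomal stalk, RPS19 the gene most often mutated in Diamond-Blackfan anaemia, RPL39 a very short 60S protein, RPS24 a 40S protein with alternative last exons, and RPL22L1, RPS27L, RPL26L1 and RPL7L1 are paralogs.
RPS6 (chr9:19380217-19380246, minus strand): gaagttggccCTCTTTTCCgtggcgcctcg
RPLP0 (chr12:120201092-120201121, minus strand): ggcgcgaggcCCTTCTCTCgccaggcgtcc
RPS19 (chr19:41860245-41860274, plus strand): ccccgtcgttCCCTTTCCCCTggctggcag
RPL39 (chrX:119791611-119791640, minus strand): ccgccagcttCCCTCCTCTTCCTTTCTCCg
RPS24 (chr10:78033853-78033882, plus strand): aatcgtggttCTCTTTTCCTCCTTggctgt
RPL22L1 (chr3:170870176-170870205, minus strand): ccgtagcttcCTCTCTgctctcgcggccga
RPS27L (chr15:63157458-63157487, minus strand): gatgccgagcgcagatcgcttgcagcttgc
RPL26L1 (chr5:172958719-172958748, plus strand): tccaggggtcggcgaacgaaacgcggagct
RPL7L1 (chr6:42879606-42879635, plus strand): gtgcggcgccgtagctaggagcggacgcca
RPL22L1 was the paralog with the tract, while the starts of RPS27L, RPL26L1 and RPL7L1 held none.

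Depth, as counts assigned to genes, was 33561766 to 41168932 in the WT and HMGB2 KD libraries. It was 14598433 to 20055750 estimated counts in the old and young tables, and 13290131 and 10971132 reads in the ICM libraries. All 9 fibroblast markers stood above 1 CPM (counts scaled to library size) in every library, the lowest at 64.5 CPM. Of the 4 epithelial markers 1 was above 1 CPM, and the 3 endothelial markers summed to between 0.394 and 3.55 CPM. Among the 3 immune markers 1 was above 1 CPM in each library, and their sum, carried by the lysosomal gene CD68, was 23.1 and 25.1 CPM in the young tables and 151 and 76.4 CPM in the old. For the targeted gene HMGB2, WT held 27.1 and 27.3 CPM and HMGB2 KD held 3.22 and 3.64 CPM.

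How the tables were made limited which members could be read. In the WT and HMGB2 KD libraries 8 core members were listed at or near 0, although the other tables held over 1000 reads on most of them. RPS18, RPL7A and RPS25 had 0 counts in all 4 of these libraries. RPL36A had 5 to 9 counts, RPS10 6 to 10, RPS9 18 to 61 and RPL17 26 to 51. RPL17, RPL36A and RPS10 share their loci with the annotated readthrough genes among the members, and the cause of the low counts was not tested. In the old and young tables the main transcripts of some core members, among them RPS27, RPL26 and RPS10, were not matched to the annotation, so that their sums of 47 to 386 estimated counts came from minor transcripts. Members with a mean of 1000 counts or more in a kind of table are called well counted below, a minimum chosen after seeing the data. They numbered 69 core genes in WT and HMGB2 KD, 73 in the old and young tables, 76 in the ICM libraries and 67 in all 3 kinds of table.

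Ribosomal protein mRNAs took between 2.99% and 5.07% of all gene counts. The 67 well counted core members held 5.07% and 4.34% of the counts in WT and 4.28% and 4.18% in HMGB2 KD. WT replicate 1 stood apart from the other 3 of these libraries. In I79 the share was 4.80% in the young table (95% exact binomial interval 4.79% to 4.81%) and 4.85% in the old (4.84% to 4.86%). In I10 it was 4.65% (4.64% to 4.66%) in the young and 4.38% (4.37% to 4.39%) in the old, so the plain share moved in opposite directions in the isolates. The ICM libraries held 2.99% and 3.01%. These intervals cover counting error only, and the 3 kinds of table were counted in different ways. The split between subunits moved little, since the 60S genes held 65.7% to 66.1% of the members' counts in the WT and HMGB2 KD libraries, 64.9% and 65.0% in the young tables, 66.3% and 66.2% in the old, and 63.3% and 63.4% under ICM. In bulk RNA, fewer cells of a kind and less RNA per cell cannot be told apart.

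**Figure D1:**
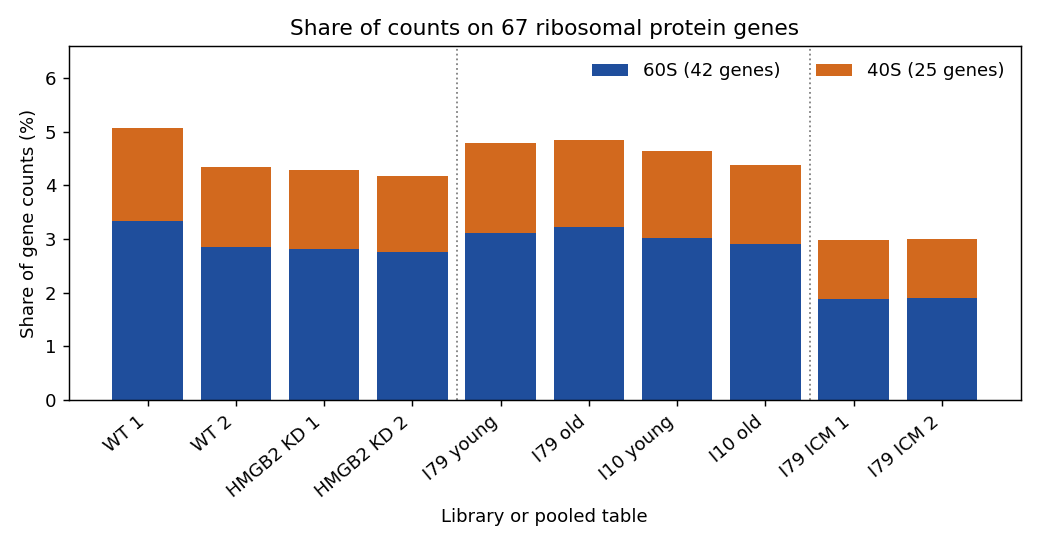
Share of all gene counts (%, vertical axis) that fell on 67 well counted core ribosomal protein genes in each library or pooled table, stacked by subunit. Dotted lines separate the 3 kinds of table, and WT replicate 1 reached 5.07% while the other WT and HMGB2 KD libraries lay between 4.18% and 4.34%.

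Between genes, levels were compared per length as TPM (transcripts scaled by length and library). RPL41, which encodes the smallest ribosomal protein, had the highest TPM of the 73 well counted core members in all 4 tables, at 5600 (I79 young), 5380 (I79 old), 5650 (I10 young) and 5200 (I10 old). RPS26 and RPL22 held the lowest places, with mean TPM of 617 and 643 over the 4 tables. RPS18, RPS19 and RPL37A followed RPL41 at means of 3960, 3960 and 3950 TPM, too close to order. The median over members was 2020 TPM (I79 young), 2060 (I79 old), 2000 (I10 young) and 1860 (I10 old). The order of the genes was alike between tables, with a Spearman coefficient of 0.992 between the young isolates and of 0.952 and 0.972 between young and old of I79 and I10. Across genes, which share library and length, these are descriptions. RPS19 moved from the sixth and the seventh place in the young tables to the second in both old tables. RPLP0 moved from the eighth place to rank 23 in I79 and rank 10 in I10.

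HMGB2 KD against WT compares cells with and without knockdown of this chromatin protein. Without a labelled control siRNA, HMGB2 loss and siRNA treatment cannot be told apart. No ribosomal protein gene was called in HMGB2 KD against WT. Of 89 members without Y linkage, 77 passed the filter on low counts, and 0 reached an adjusted p under 0.01 with an absolute log2 fold change over 0.6 by edgeR's quasi-likelihood test, a threshold that 5.20% of the 15338 genes tested passed. With an adjusted p under 0.05 and no fold minimum 0 members were higher (6.14% of all genes) and 0 lower (4.74%), and at an unadjusted p under 0.05 there was 1 (1.3% of members against 23.9% of all genes). DESeq2 called 0 as well. The median log2 fold change over the 69 well counted core members was -0.11, with a median standard error of 0.15 for a single gene, against 0.002 over all genes tested. Of these members 58 (84.1%) lay below 0, compared with 49.7% of all genes, and the range ran from -0.35 to 0.15.

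The lower values rested on 1 library. In 63 of the 69 well counted core members WT replicate 1 was the highest of the 4 libraries. The median log2 ratio of WT replicate 1 to WT replicate 2 was 0.25 over these members and -0.01 over all genes, whereas the HMGB2 KD replicates differed by 0.02. The summed fibroblast markers were also lowest in WT replicate 1, at 23000 CPM against 30700 in WT replicate 2 and 35900 and 43300 in HMGB2 KD, and their part in the result was not tested. Without WT replicate 1 the median log2 fold change of the core members was 0.02, with 28 of the 69 below 0, and without WT replicate 2 it was -0.25, with 66 below 0. The ranges of WT and HMGB2 KD were separate in 17 of the 69 members (24.6%), against 53.8% of all genes tested. The subunits did not part, with medians of -0.12 over 43 genes of 60S and -0.11 over 26 genes of 40S.

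**Figure D2:**
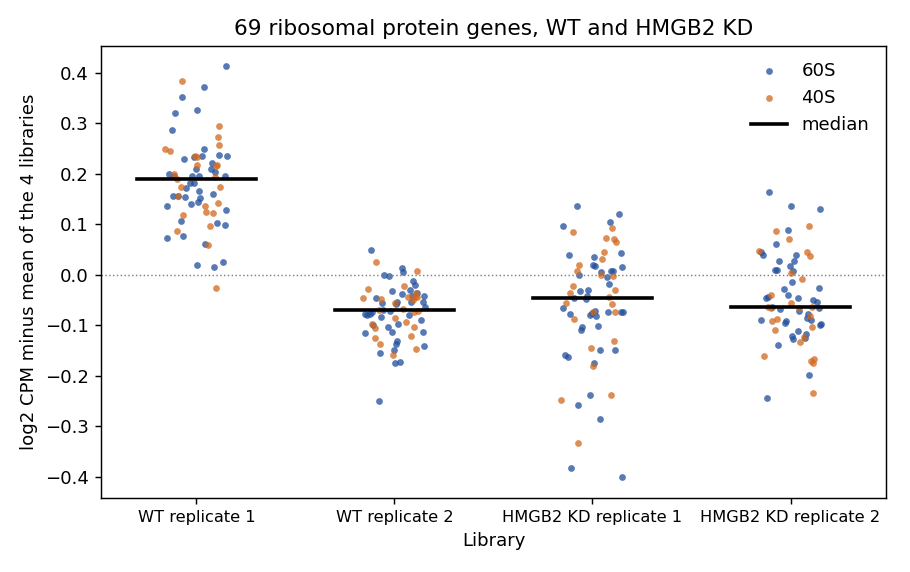
Log2 CPM of 69 well counted core members minus each gene's mean over the 4 libraries (vertical axis), by library, with 1 point per gene coloured by subunit and a black line at the median. WT replicate 1 was the highest library for 63 of the 69 genes, and the HMGB2 KD points lie beside those of WT replicate 2.

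RPL39 (chrX:118920467-118925593, GRCh37) had the lowest value among the well counted members and the smallest p. WT held 295 and 222 CPM of it and HMGB2 KD 187 and 221 CPM. The log2 fold change was -0.35 with an SE of 0.159 and an adjusted p of 0.204 by edgeR. The KD libraries lay below both WT libraries, the higher of them by only 1 CPM. RPL37, a zinc-binding 60S protein, stood at 731 and 498 CPM in WT and 416 and 601 in HMGB2 KD, with overlapping groups (-0.27 on the log2 scale, adjusted p 0.457). RPL41 was at 453 and 385 CPM in WT and 344 and 353 in HMGB2 KD (-0.27, adjusted p 0.279), and RPS26, a 40S protein at the mRNA exit, at 232 and 195 CPM against 190 and 165 (-0.27, adjusted p 0.28). In both of these the groups did not overlap, while the adjusted p stayed far from the threshold. RPL17 had a log2 fold change of -0.75, but on 26 to 51 counts, and of 0.06 once pseudogene counts were added (adjusted p 0.365 and 0.916 by edgeR).

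At the other end RPL10, the 60S protein that joins last and completes the subunit, had 1190 and 1040 CPM (WT) against 1190 and 1290 CPM (HMGB2 KD, log2 fold change 0.15, adjusted p 0.589). RPL28 had a log2 fold change of 0.13 (adjusted p 0.674), as did RPSA, the laminin receptor protein of the 40S subunit (0.13, adjusted p 0.644). RPL5 was at 0.07 (adjusted p 0.841), and RPS9, with 18 to 61 counts, at 0.13 (adjusted p 0.925).

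The stalk proteins, which recruit translation factors, had log2 fold changes of -0.07 for RPLP0, -0.21 for RPLP1 and -0.08 for RPLP2. RPL11, partner of RPL5 in the 5S particle, was at -0.13 and RPS6 at -0.08. RPL3, RPL10A, RPL12 and RPS3, whose splice variants are known substrates of nonsense-mediated decay, were at 0.00, -0.15, 0.01 and -0.20. None of these passed the test, with adjusted p between 0.452 and 0.992. RPS27A, made as a fusion with ubiquitin, was at -0.10, RPS19 at 0.03 and RPL13A at -0.13.

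Paralog pairs were not separated by a test either. RPS27L, a paralog of RPS27, had 171 and 142 CPM (WT) against 182 and 192 CPM (HMGB2 KD, log2 fold change 0.26, SE 0.138, adjusted p 0.279), and its core partner RPS27 at 745 and 589 against 577 and 538 CPM (-0.26, adjusted p 0.342). RPL22L1 stood at 28.6 and 22.9 CPM in WT and 23.1 and 18.3 in HMGB2 KD (-0.31, adjusted p 0.26), beside -0.17 for RPL22. RPL26L1 was at 0.01 beside -0.20 for RPL26, and RPL7L1 at -0.20 beside -0.09 for RPL7. RPL39L had 3 to 37 counts (0.49, adjusted p 0.793), and RPL36A and RPL36AL had too few counts to be tested.

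Some other lists also lay mostly below 0, where 49.7% of all genes tested lay. The other TOP mRNAs did not, with 7 above 0, 8 below and a median log2 fold change of -0.01. Among other genes of the pathway, listed by function, 49 of 64 ribosome biogenesis factors lay below 0 (median log2 fold change -0.12), as did 60 of 75 mitochondrial ribosomal proteins (-0.09) and 9 of 13 genes of RNA polymerase I (-0.13). Of the 64 biogenesis factors 4 were lower and 0 higher at an adjusted p under 0.05, near the 4.74% of all genes that were lower, and LTV1, an assembly factor of the 40S subunit, was called. It stood at 51.1 and 47.4 CPM in WT and 34.1 and 27.3 in HMGB2 KD (log2 fold change -0.68, SE 0.143, adjusted p 0.00711). Among 24 regulators around mTOR, LARP1 and MYC, EIF4EBP1, an inhibitor of cap-dependent translation under mTOR control, rose by 0.91 (adjusted p 0.00772), from 27.2 and 28.1 to 38.7 and 64.9 CPM. LARP4, which binds poly(A) tails and stabilises mRNAs, fell by 1.02 (adjusted p 0.000245), from 72.7 and 80.0 to 39.4 and 35.8 CPM. None of the 13 subunits and factors of RNA polymerase I, which makes ribosomal RNA, and none of 15 other TOP mRNAs passed at 0.05. FAU and RACK1, ribosomal proteins with other symbols, had log2 fold changes of -0.10 and 0.02.

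The old and young tables address replicative senescence in both isolates. On the scale set by trimmed means (TMM), most ribosomal protein genes lay slightly higher in old cells while few of them passed a test. The 73 well counted core members had a median log2 fold change of 0.18 over both isolates, 0.19 in I79 and 0.17 in I10, against -0.01 over the 15116 genes tested. Of these members 65 (89.0%) lay above 0, compared with 49.4% of all genes. They were higher in old in both isolates in 60 cases (82.2% against 40.1% of all genes) and lower in both in 5 (40.8% of all genes). Old and young tables did not overlap in 60 of the 73 members (82.2%), against 74.0% of all genes. With plain library totals the median of the core members turned to -0.03 while that of all genes moved to -0.22, and 42.5% of the well counted members lay above 0 against 36.5% of all genes. The TMM factors were 1.072 and 1.08 for the young tables and 0.9565 and 0.9033 for the old. The direction of the members as a group is therefore relative to the other genes and depends on the scaling.

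At the level of single genes, 10 of the 73 (13.7%) had an unadjusted p under 0.05, compared with 45.4% of all genes tested. Of the 86 members tested 1 was called (9.57% of all genes), RPS10, which rested on 47 to 223 estimated counts of minor transcripts (log2 fold change -1.67, adjusted p 0.00814). At an adjusted p under 0.05, 3 members were higher (16.6% of all genes) and 3 lower (15.4%). RPS27 (1.45), RPL26 (-1.06) and RPS10 were the unreadable ones among these 6. RPS19, RPS27L and RPL22L1 were the others, each with adjusted p between 0.0135 and 0.0412, and none reached the stricter call.

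RPS19 (chr19:42364325-42376993, GRCh37) rose in both isolates. Its level was 647 CPM (I79 young), 1070 (I79 old), 636 (I10 young) and 865 (I10 old). Both old values lay above both young values, by 0.72 on the log2 scale in I79 and by 0.44 in I10. The log2 fold change was 0.58 with an SE of 0.148 and an adjusted p of 0.0412 by edgeR, and with plain library totals it was 0.37 with an adjusted p of 0.0807, so the call was lost.

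RPS27L (chr15:63418071-63450220, GRCh37) rose, with 141 CPM young and 225 old in I79, and 158 young and 244 old in I10. Its log2 fold change was 0.65 (SE 0.103, adjusted p 0.0135), which stayed under 0.05 in each of the 9 alternatives run and was 0.44 with plain library totals. RPS27L has no TOP tract in the sequence shown above. CDKN1A, an inhibitor of cyclin-dependent kinases in growth arrest, was called by a log2 fold change of 2.48 (354 to 2350 CPM in I79, 341 to 1610 in I10). MDM2, which RPL5 and RPL11 bind, had a log2 fold change of 0.24 (adjusted p 0.19).

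RPL22L1 (chr3:170582664-170587997, GRCh37) fell, with 55.2 CPM young and 43.0 old in I79, and 60.9 young and 43.8 old in I10. The log2 fold change was -0.42 (SE 0.105, adjusted p 0.0401), and DESeq2 gave an adjusted p of 0.205. Its core partner RPL22, an RNA-binding 60S protein, was at 373 and 407 CPM in I79 young and old and at 384 and 399 in I10 (0.09, adjusted p 0.581). RPL26L1 stood at 28.8 and 17.4 CPM in I79 and 26.8 and 21.4 in I10 (-0.52, adjusted p 0.0617), and RPL7L1, a nucleolar relative of RPL7, at 164 and 128 CPM in I79 and 165 and 129 in I10 (-0.35, adjusted p 0.0529). Both paralogs were lower in old in both isolates, just outside the threshold, while RPL7 was at 0.04. The pair RPL36A and RPL36AL had log2 fold changes of 0.19 and 0.06, and RPL39 and RPL39L of 0.31 and -0.22, with adjusted p between 0.107 and 0.71.

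**Figure D3:**
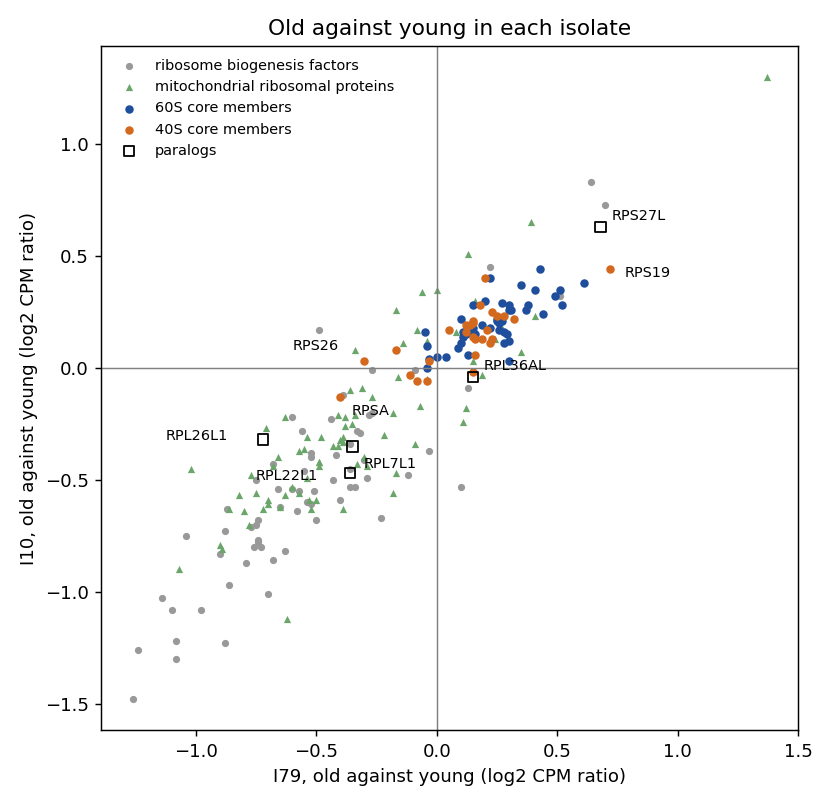
Log2 CPM ratio of old to young in I79 (horizontal axis) and I10 (vertical axis) for 73 well counted core members by subunit, 5 paralogs (open squares), ribosome biogenesis factors (grey) and mitochondrial ribosomal proteins (green triangles). Core members cluster near their medians of 0.19 and 0.17, with RPS19 farthest to the upper right, and most biogenesis factors lie below 0 in both isolates.

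The next largest values among the well counted core members were those of 60S genes. RPL13 stood at 719 and 1090 CPM in I79 young and old and at 711 and 927 in I10 (log2 fold change 0.49, adjusted p 0.0582). RPL12, a protein at the stalk base, was at 658 and 887 CPM in I79 and 622 and 844 in I10 (0.44, adjusted p 0.0622). RPL37 was at 617 and 877 CPM in I79 and 592 and 758 in I10 (0.43, adjusted p 0.0675). In each the old values lay above the young in both isolates, and none passed the threshold in the fit reported, although RPL13, RPL12 and RPL37 passed it with DESeq2. RPL31 and RPL17 were at 0.40 each (adjusted p 0.0713 and 0.0968).

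On the lower side stood 40S genes. RPSA was at 1080 CPM (I79 young), 817 (I79 old), 1050 (I10 young) and 959 (I10 old, log2 fold change -0.26, SE 0.151, adjusted p 0.242), lower in old in both isolates. RPS26 stood at 206 and 167 CPM in I79 and 182 and 186 in I10 (-0.14, adjusted p 0.448), so the isolates differed in sign. Of the 8 well counted core members below 0, 7 were 40S genes. The subunit medians were 0.22 over 45 genes of 60S, of which 44 lay above 0, and 0.16 over 28 genes of 40S, of which 21 did. A difference between subunits was not tested.

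The remaining panel genes lay between. Of the stalk proteins RPLP0 stood at 1820 and 1750 CPM in I79 young and old and at 1690 and 1880 in I10 (log2 fold change 0.05), RPLP1 at 0.22 and RPLP2 at 0.31. RPL5 and RPL11 of the 5S particle were at 0.24 and 0.17, and RPS6 at 0.27 with 1100 and 1380 CPM in I79 and 1070 and 1250 in I10. RPL3 was at 0.23, RPL10A at -0.02 and RPS3 at 0.00, and the share of RPS3 counts on decay transcripts differed by under 1 point (38.9% and 38.7% in I79, 37.7% and 38.3% in I10, young and old). RPS27A was at 0.15, RPL13A at 0.16 and RPL41 at 0.11. The adjusted p of these genes ran from 0.117 to 1.

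On the TMM scale, the factors that build ribosomes went the other way from most core members, whose own direction depends on the scaling. Of 67 ribosome biogenesis genes tested, 38 were lower (15.4% of all genes tested were) and 2 higher (16.6% of all genes) at an adjusted p under 0.05, and their median log2 fold change was -0.56. RRS1, needed for the 5S particle to enter the 60S precursor, fell by 1.39 (17.3 to 7.16 CPM in I79, 24.2 to 8.57 in I10). UTP20, a scaffold of the 40S precursor, fell by 1.25 (53.2 to 22.4 and 52.6 to 21.9 CPM). RRP9 and UTP14A, other parts of the small-subunit processome, fell by 1.19 and 1.16. NMD3, the export adaptor of the 60S subunit, was the called gene that rose, by 0.71 (62.5 to 102 and 61.1 to 101 CPM). Of 14 genes of RNA polymerase I 7 were lower at 0.05 (15.4% of all genes), and its largest subunit POLR1A fell (70.0 to 32.2 and 70.2 to 28.9 CPM, adjusted p 0.00499 by edgeR).

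Mitochondrial ribosomal proteins, taken by symbol after seeing the data, were mostly lower in old cells. Of 78 tested 30 were lower and 2 higher at 0.05, beside 15.4% and 16.6% of all genes, with a median of -0.36. MRPL15 fell by 0.99 and MRPL3 by 0.85, while MRPS6 rose by 1.34 (27.3 to 70.9 and 25.4 to 62.6 CPM).

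Other mRNAs with a TOP tract had values like those of the ribosomal proteins. The 16 other TOP mRNAs had a median of 0.21, and HNRNPA1, a splicing factor, was the 1 that passed at 0.05, falling by 1.09 (1160 to 537 CPM in I79, 1170 to 557 in I10). EEF1A1 and EEF2, the elongation factors, were at 0.46 and 0.45 (adjusted p 0.238 and 0.117), and FAU and RACK1 at 0.21 and 0.24. Of 11 TOP-like host RNAs of small nucleolar RNAs 3 were higher at 0.05, where 16.6% of all genes were, namely GAS5 (0.86, adjusted p 0.0125), ZFAS1 (0.65, adjusted p 0.0121) and SNHG6 (0.47, adjusted p 0.0425), and 0 lower. Among regulators MXI1, an antagonist of MYC, rose by 2.20 (20.5 to 110 and 19.7 to 78.2 CPM), and MYC was at 0.50 (adjusted p 0.0638), MTOR at -0.35 (adjusted p 0.058) and LARP1 at 0.04.

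Members with and without a match to the tract at the annotated start were set side by side, and a difference between them was not tested. In old against young the median log2 fold change was 0.19 over 43 well counted core members with a match. It was 0.17 over 16 with an entry but no match. In HMGB2 KD against WT the medians were -0.13 over 40 and -0.09 over 15 members.

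The old and young tables list transcripts, which allowed the composition of each gene to be read without tests. Few ribosomal protein genes shifted between transcripts. A transcript share moved by over 5 percentage points the same way in both isolates in 3 of 73 well counted core members (4.11%), against 20.2% of 3415 genes with a mean of 1000 counts or more and several transcripts. The 3 were RPS24, RPS26 and RPL14.

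RPS24 (chr10:79793518-79816571, GRCh37, plus strand) showed the largest shift among the members, and 23 of the 3415 genes had one at least as large. Its penultimate exon is a cassette of 22 bases on GRCh37, shown here with 4 intronic bases on each side in lower case and the exon in capitals.
RPS24 exon (chr10:79799958-79799987, plus strand): tcagTGAGCTGGAGATTGGATCACAGgtat
The exon opens with the stop codon, so coding transcripts that include it end translation there. Coding transcripts that skip it read 3 further codons in the last exon. The annotation held 6 transcripts with the exon and 3 that skip it. Of these 3, ENST00000482069 has no defined coding region. It held 396 (I79 young), 30 (I79 old), 1071 (I10 young) and 529 (I10 old) estimated counts. The skipping shares are therefore shares of transcripts and not of the longer protein form. Skipping transcripts had 3282 estimated counts in I79 young, or 35.5% (95% exact binomial interval 34.5% to 36.4%), and 326 in I79 old, or 2.59% (2.32% to 2.88%). In I10 they had 3672 estimated counts in young, or 34.2% (33.3% to 35.1%), and 1600 in old, or 13.2% (12.6% to 13.8%). Old cells thus held a lower share in both isolates, by a larger step in I79, while counts on transcripts with the exon went from 5974 to 12260 in I79 and from 7070 to 10545 in I10.

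The gene as a whole had 10010 and 13142 estimated counts in I79 young and old and 11609 and 12607 in I10, at unequal depth. The intervals cover counting error only, no group had a second table, and nothing was tested. The main skipping transcript, ENST00000613865, also starts 103 bases upstream of ENST00000372360, the main transcript with the exon, so reads at the 5′ end bear on the assignment as well. ENST00000613865 held 28.8% (I79 young), 1.98% (I79 old), 22.4% (I10 young) and 8.28% (I10 old) of all RPS24 counts. ENST00000372360 held 59.5%, 93.0%, 60.6% and 83.3% in the same order.

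**Figure D4:**
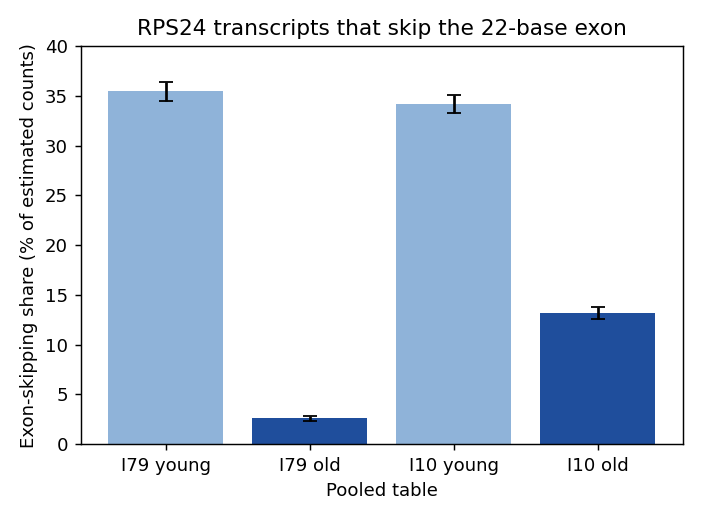
Share of estimated counts (%, vertical axis) on RPS24 transcripts that skip the 22-base exon, among transcripts that skip or include it, in each pooled old or young table. Error bars are 95% exact binomial intervals (counting error only), and the share is 35.5% and 34.2% in the young tables and 2.59% and 13.2% in the old.

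RPS26 (chr12:56435135-56438481, GRCh37) shifted between transcripts with the same protein. ENST00000646449 held 16.9% (I79 young), 5.74% (I79 old), 17.4% (I10 young) and 4.77% (I10 old) of its counts. ENST00000552361 held 81.1%, 93.0%, 80.8% and 93.9% in the same order, so both isolates moved by over 11 points. In RPL14, a 60S gene with an annotated retained-intron transcript that took most of its counts, that transcript (ENST00000479563) held 71.7% and 66.3% in I79 young and old and 73.6% and 67.9% in I10.

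Retained-intron transcripts, in which an intron stays in the RNA, held a lower share in old cells for most members. Over the 73 well counted core members they took 6.01% (I79 young), 5.46% (I79 old), 6.07% (I10 young) and 5.86% (I10 old) of counts, compared with 3.02%, 2.91%, 3.07% and 2.86% over all protein-coding genes of that depth. Of 61 members with counts on such transcripts 45 (73.8%) had a lower share in old in both isolates, against 30.3% of 2337 genes, and 7 had a higher share in both. RPS24 went from 7.37% to 3.11% in I79 and from 7.24% to 3.01% in I10. RPL4 went the other way, from 67.5% to 69.1% and from 68.6% to 73.3%. Such transcripts share most bases with the coding ones, which limits how well counts are divided between them.

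ICM libraries could be set against I79 young only across differently counted tables, so the counting and the treatment cannot be told apart. Over the 67 well counted core members the median log2 CPM ratio of ICM to I79 young was -0.63, with quartiles of -0.89 and -0.37. Of these 63 (94.0%) lay below 0, compared with 40.4% of 2032 protein-coding genes with 1000 counts or more in all kinds of table, whose median was 0.18. WT against I79 young compares groups that are not labelled as ICM-treated and were also counted differently. This ratio had medians of -0.07 over the members and 0.03 over the same 2032 genes. ICM ratios were lower than WT ratios in 59 of the 67 members. Over all 24638 shared genes, with no minimum of counts, they were lower in 14220. The summed fibroblast markers stood at 13800 and 14100 CPM in the ICM libraries against 36400 CPM in I79 young, and their part in these ratios was not tested. The subunits were alike, at -0.64 for 42 genes of 60S and -0.62 for 25 genes of 40S. The 2 ICM replicates differed by -0.19 to 0.23 on the log2 scale across members.

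Single members ranged widely. RPL13A, a 60S protein also known from interferon-gated translational silencing, had 181 and 188 CPM in the ICM libraries and the lowest ratio, -3.29, beside 0.43 for WT. RPSA followed with 215 and 219 CPM (-2.45, beside -0.52), then RPL12 with 159 and 145 CPM (-2.26, beside -0.16) and RPL3 with 592 and 582 CPM (-1.72, beside -0.36). At the upper end stood RPS28 with 332 and 292 CPM (0.48, beside 0.25), RPS15 (0.23, beside 0.53), RPLP2 (0.18, beside 0.20) and RPS19 with 726 and 710 CPM (0.01, beside 0.60). Most of the remaining panel genes had lower ratios than in WT, with RPLP1 and RPL41 as exceptions. Of the stalk RPLP0 was at -0.85 (beside -0.30 for WT) and RPLP1 at -0.15 (beside -0.19), and RPL5 and RPL11 were at -0.65 and -0.83 (beside -0.35 and -0.06). RPS6 was at -0.91 (beside -0.03), RPS3 at -0.89 (beside -0.12), RPL10A at -1.19 (beside -0.08) and RPS27A at -0.63 (beside -0.15). RPL41 and RPL39 stood at -0.97 and -0.79, where WT was itself low at -1.39 and -0.50.

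Paralogs did not share 1 direction under ICM. RPS27L had 194 and 180 CPM in the ICM libraries and a ratio of 0.26 (beside 0.07 for WT), and RPL7L1 was at 0.02 while RPL7 was at -0.63. RPL22L1 had 13.2 and 14.4 CPM (-2.14, beside -1.18), and RPL22 was at -0.54 (beside -0.51). RPL26L1 was at -0.48 (beside -0.31). The ratios of RPL36A (-1.76), RPL36AL (0.74) and RPL39L (1.22) have no usable WT value beside them, and RPS27 and RPL26 could not be read in I79 young.

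Other gene lists had medians of -0.93 over 11 other TOP mRNAs of the same depth and -0.05 over 9 ribosome biogenesis factors. Over all listed genes of the lists, the 78 mitochondrial ribosomal proteins had a median of 0.01 beside -0.03 for WT.

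**Figure D5:**
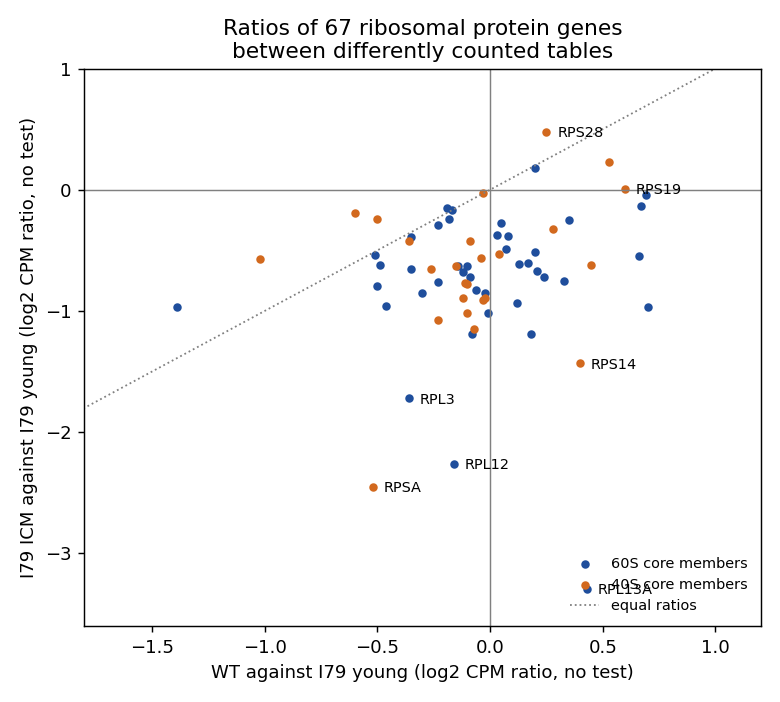
Log2 CPM ratio to I79 young of the ICM libraries (vertical axis) and of WT (horizontal axis) for 67 well counted core members by subunit, with a dotted line where both ratios are equal. The members' medians are -0.63 for ICM and -0.07 for WT, 59 of 67 lie under the dotted line, and RPL13A is lowest at -3.29. Of all 24638 shared genes, which are not drawn, 14220 had a lower ratio for ICM than for WT.

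The ICM tables also split reads by transcript region. Core members had 25.5% and 25.6% of their reads in the 5′ UTR, 71.9% in the coding region in both libraries and 2.50% and 2.41% in the 3′ UTR. All genes had 10.4% and 10.6%, 61.1% and 61.9%, and 25.3% and 24.2%, so a larger part of the members' reads lay in the 5′ UTR. The 5′ UTR share was highest for RPL38 (66.1% and 60.1%) and RPLP1 (58.1% and 58.5%), and was 0 for RPS21. RPL13A had 43.3% and 43.8% of its reads in the 3′ UTR. With the coding region alone, the median ratio of the core members to I79 young was -0.48.

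Reads of ribosomal protein pseudogenes, whose sequences are near copies of the parent mRNAs, were few in all tables. They made up 0.991% to 1.33% of the core members' counts in WT and HMGB2 KD, 2.59% to 2.82% in the old and young tables and 4.23% and 4.24% in the ICM libraries, which list only 29 of the pseudogenes. Adding them to the parent genes left the median of the core members at -0.11 for HMGB2 KD, at 0.18 for old against young and at -0.63 for ICM.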

How the data were processed

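Deposited by the authors were gene-level raw counts of every WT and HMGB2 KD library, estimated counts, TPM and effective lengths per transcript for each old or young group (1 table per group, treated as pooled), and, for the ICM libraries, gene-level reads split by transcript region, with shared reads as fractions. Per the labels, the authors' tools were STAR 2.6.0c and featureCounts on GRCh37, although the WT and HMGB2 KD tables end with summary rows (16.92% to 18.02% of their totals, left out here). How the transcript and ICM counts were made is not given in the sources used here. Transcripts were summed per gene and rounded (97.67% of identifiers matched GENCODE v44 lifted to GRCh37).

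Tests used edgeR 4.0.16 (quasi-likelihood, TMM, filterByExpr, Benjamini-Hochberg over all genes). HMGB2 KD was compared with WT without covariates, and old with young with isolate as covariate, leaving 1 residual degree of freedom. DESeq2 1.42.0 was an alternative. In a test with simulated counts, in which 200 genes were given a log2 change of 1.5, 73% were recovered with 2 false calls for HMGB2 KD against WT (15013 genes) and 74% with 0 false calls for old against young (14768 genes). Well counted core members ranged only from -0.35 to 0.15 and from -0.26 to 0.58, so recovery of changes that small was not tested. The simulation took its spread from the trend over all genes and held no difference between isolates. Replicates were not copies of each other, with chi-square per degree of freedom of 24.7 in WT, 37.6 in HMGB2 KD and 2.1 in ICM. Counting error alone gives about 1, so the ICM replicates differed by far less beyond it than those of WT and HMGB2 KD. ICM ratios are log2 CPM with a prior count of 2 over shared symbols. Standard errors (SE) were taken as |log2 fold change| divided by √F. The named members were a fixed panel plus the called members or, where under 5 were called in a direction, the 5 core members with the largest change there. Members and lists were chosen with earlier results of these data known. Some members and listed genes are not reported here.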

Additional observations from a re-analysis of the deposited data

Results flagged for a closer look

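In 5 of the named members the change from young to old had opposite signs in the isolates, and the difference between isolates was not tested, since each group had 1 table. RPL39L, a paralog of RPL39 with 146 to 206 estimated counts, had log2 changes of -0.48 in I79 and 0.04 in I10, and RPS26 of -0.30 and 0.03. RPLP0 was at -0.05 in I79 and 0.16 in I10, RPL36AL at 0.15 and -0.04, and RPS3 at -0.03 and 0.03.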

How the results depend on the processing

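For HMGB2 KD against WT the count of called members was 0 under all 13 alternatives run, and the count of core members at an adjusted p under 0.05 was 0 under 12 of them. With 1 RUVs factor it was 1, RPL39 (log2 fold change -0.36, adjusted p 0.0457). Leaving out 1 library in turn gave a median of the core members between -0.25 and 0.02. The replicate block gave the median as -0.11 and changed no call of a member. The labels share only numbers (correlation of the replicate differences 0.181 over 2 pairs), so the numbers were not read as pairing. Of the other values of named members, 33 changed sign without a call, 21 of them on leaving out 1 library.

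For old against young 1 member was called, RPS10. There were 3 with DESeq2, 4 with plain library totals, 4 with no filter on low counts, 0 with no isolate covariate, 3 with length-scaled counts and 0 with pseudogene counts added or among members with a mean of 1000 counts or more, which was chosen after seeing the data. Core members at an adjusted p under 0.05 were 4. They were 7 with no filter, 9 with no isolate covariate and 1 among members with a mean of 1000 counts or more. The median of the core members was -0.03 with plain library totals, 0.16 with no filter and 0.20 on protein-coding transcripts. In 23 cases an alternative moved a named member across the 0.05 threshold, and a called member reversed in 0. The cause was not tested, except that plain totals shift all genes. For ICM the median was -0.48 with the coding region alone and -0.66 and -0.63 on leaving out a replicate. As a share of TPM, RPS24 skipping was 31.9% in I79 young and 2.17% in I79 old, and it was lower in old than in young in I10 as well. With 1 residual degree of freedom, the old against young test depends on the spread estimated over all genes.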
